A study of Mus musculus with 2 samples.

Results

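The distal promoter peaks are the places, more than 3 kb and less than 10 kb upstream of an assigned transcription start site, where a fusion of Dnmt1 to the adenine methylase Dam marked the DNA of cleavage-stage mouse embryos more strongly than Dam did alone. They were chosen by the location class that the authors gave each peak, and 335 of 8226 listed peaks belong to it (4.07%, exact 95% interval 3.66 to 4.52). The tested library, Dnmt1-Dam, came from 50 embryos injected with Dnmt1-V5-Dam, and the control library, Dam-only, from 50 embryos injected with Dam alone. All embryos were BCF1 (C57BL/6 x CBA/CA), collected as zygotes from superovulated females 5 weeks old and harvested between 4 and 8 cells. Each library pools its embryos and there is 1 library per group. Without replicates there is no error between embryos to test against, and no p-value is given. In genomic DNA of whole embryos, the share of cells or alleles marked at a peak cannot be told from the strength of marking in each cell.

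Dnmt1 is the maintenance methyltransferase: it copies CpG methylation onto the new strand after replication. In DamID a protein fused to the bacterial enzyme Dam leaves methyl groups on adenine in GATC near the places it visits, and Dam without a partner marks accessible chromatin. Sequence some kilobases upstream of a start site can hold enhancers, alternative promoters and transposable elements, and in the mouse the short interspersed elements (SINEs) lie mostly in gene-rich DNA.

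The peaks are listed in mm9 as single positions, and their own sequence was not analysed here. The bases just before the start sites are shown for the genes of the 4 highest distal promoter peaks, as the nearest sequence at hand. These are the 250 bases 5′ of the start in RefSeq's GRCm38.p6, read 5′ to 3′ on the gene's strand, and they do not contain the peaks. Capitals mark CG, the dinucleotide that Dnmt1 methylates.

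Cmas, chr6:142756436-142756685, plus strand: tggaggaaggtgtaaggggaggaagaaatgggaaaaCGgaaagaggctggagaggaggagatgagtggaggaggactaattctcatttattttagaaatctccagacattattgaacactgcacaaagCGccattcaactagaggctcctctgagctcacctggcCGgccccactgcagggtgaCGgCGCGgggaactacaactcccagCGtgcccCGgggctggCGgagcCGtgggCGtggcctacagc
Sult1c1, chr17:53990632-53990881, minus strand: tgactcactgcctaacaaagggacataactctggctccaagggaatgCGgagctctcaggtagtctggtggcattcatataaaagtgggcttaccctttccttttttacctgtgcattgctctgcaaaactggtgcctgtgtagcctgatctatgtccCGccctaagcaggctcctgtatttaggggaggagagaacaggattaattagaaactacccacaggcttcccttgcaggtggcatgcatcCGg
Tha1, chr11:117873527-117873776, minus strand: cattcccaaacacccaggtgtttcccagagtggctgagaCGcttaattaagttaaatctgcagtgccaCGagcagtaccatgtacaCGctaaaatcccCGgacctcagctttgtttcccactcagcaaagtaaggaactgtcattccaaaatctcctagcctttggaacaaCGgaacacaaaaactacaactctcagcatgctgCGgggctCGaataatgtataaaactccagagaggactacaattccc
Glra3, chr8:55940168-55940417, plus strand: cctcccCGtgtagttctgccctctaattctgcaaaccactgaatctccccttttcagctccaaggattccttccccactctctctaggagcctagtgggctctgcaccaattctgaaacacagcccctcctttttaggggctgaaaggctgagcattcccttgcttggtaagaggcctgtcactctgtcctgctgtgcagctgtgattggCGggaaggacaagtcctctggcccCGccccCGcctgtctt

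The stretch of 250 bases at Cmas held 11 CG, that at Tha1 held 7, that at Glra3 held 4 and that at Sult1c1 held 3. Their observed over expected CG was 0.568, 0.543, 0.214 and 0.192 in the same order. Over the assigned genes, start windows of 300 bases (250 before and 50 after the start) were matched for 257 of 313 genes with a RefSeq gene. A window was called CpG-rich at an observed over expected CG of at least 0.6 and a GC content of at least 50%, averaged over a gene's windows. The 4 sequences above all lie below the first of these limits, but they leave out the 50 bases after the start. They are thus not the scored windows, and how these 4 genes were called is not given here. CpG-rich windows belonged to 142 of these 257 genes (55.3%, 48.9 to 61.4), against 2020 of 3475 genes with a peak elsewhere and none in the distal promoter (58.1%, 56.5 to 59.8) and 5623 of 13120 RefSeq genes with no peak (42.9%, 42.0 to 43.7). The interval of the distal promoter genes overlapped that of the other genes with a peak and lay above that of the genes with none. At least 1 window carried CG in 96.9% of the distal promoter genes, against 98.6% of the genes with a peak elsewhere only and 95.4% of all RefSeq genes with a window. GATC, which reads the same on both strands, was in at least 1 start window of 134 of the 257 genes (52.1%). It was in 51.1% of the genes with a peak elsewhere only and 49.9% of all RefSeq genes with a window.

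Dnmt1-Dam heights at distal promoter peaks were low and closely bunched. The lowest height was 7, the median 9 (interquartile range 7 to 11) and the highest 24, while in Dam-only they were 1, 1 (1 to 2) and 6. The heights are whole numbers and were treated as signal, without a counting interval. Their scaling is not given in the sources used here. At 86 peaks the Dnmt1-Dam height was 7, the smallest in the list, and at 61 it was 8. Of the 335 peaks, 36 reached a height of 15 or more (10.7%, 7.64 to 14.6), against 8.66% of all listed peaks. The intervals of the distal promoter peaks and of all other peaks (8.57%, 7.96 to 9.21) overlapped, so the share of high peaks was not told apart from that elsewhere.

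The Dam-only height, which is the background at the same place, was above its floor more often than in the rest of the list. It was 1 at 234 distal promoter peaks (69.9%, 64.6 to 74.7), against 76.1% of all other peaks (75.1 to 77.0), and the intervals did not overlap. It was 2 at 49 peaks and 3 or more at 52 (15.5%, 11.8 to 19.9), against 11.6% of all other peaks (10.9 to 12.3). On the autosomes alone the shares at 1 were 70.2% (65.0 to 75.2) and 76.1% (75.2 to 77.1), with intervals that touched. Peaks 3 to 10 kb downstream of a start site, a band of equal width on the other side that was chosen after the data had been seen, had a Dam-only height of 1 at 72.7% (68.7 to 76.5), which overlaps the distal promoter share. All intervals here cover counting error only and count each peak on its own, although close neighbors are not independent.

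Because every listed peak exceeds its Dam-only height by at least 6 and by at least 2 times, low peaks cannot have a high background, and the comparison was repeated within ranges of height that were chosen after the data had been seen. Among peaks of height 7 to 8, a Dam-only height of 1 was found at 132 of 147 distal promoter peaks (89.8%, 83.7 to 94.2) and 91.3% of the others (90.3 to 92.1). Among those of 9 to 14 it was found at 86 of 152 (56.6%, 48.3 to 64.6) and 64.0% of the others (62.4 to 65.6). Among those of 15 or more it was found at 16 of 36 (44.4%, 27.9 to 61.9) and 54.7% of the others (50.9 to 58.5). The distal promoter share was the lower one in each range, with overlapping intervals in all 3. A Dam-only height of 3 or more stood at 18 of the 36 highest distal promoter peaks (50.0%, 32.9 to 67.1), against 29.0% of the other peaks of that height (25.6 to 32.6). These intervals lay just apart, on few peaks. At heights of 9 to 14 the shares were 22.4% (16.0 to 29.8) and 20.5% (19.21 to 21.9), with overlap, and at 7 to 8 no peak can reach a Dam-only height of 3. In the downstream band 11 of 44 peaks of height 15 or more had a Dam-only height of 3 or more (25%, 13.2 to 40.3). This interval overlaps the distal promoter interval at that height but does not reach its value of 50.0%.

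The ratio of the heights had a median of 7 (interquartile range 5.5 to 9) at distal promoter peaks and of 8 (7 to 9) at all other peaks. It was 10 or more at 70 of the 335 peaks (20.9%, 16.7 to 25.6), against 23.4% of all listed peaks. The share lies near that background. On the log2 scale with a pseudocount of 1 the median was 2.0 ± 0.46 (SD over the 335 peaks), against 2.17 ± 0.46 at all other peaks (SD, 7891 peaks). The difference is smaller than the spread between single peaks, which is not the error of a median.

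**Figure D1:**
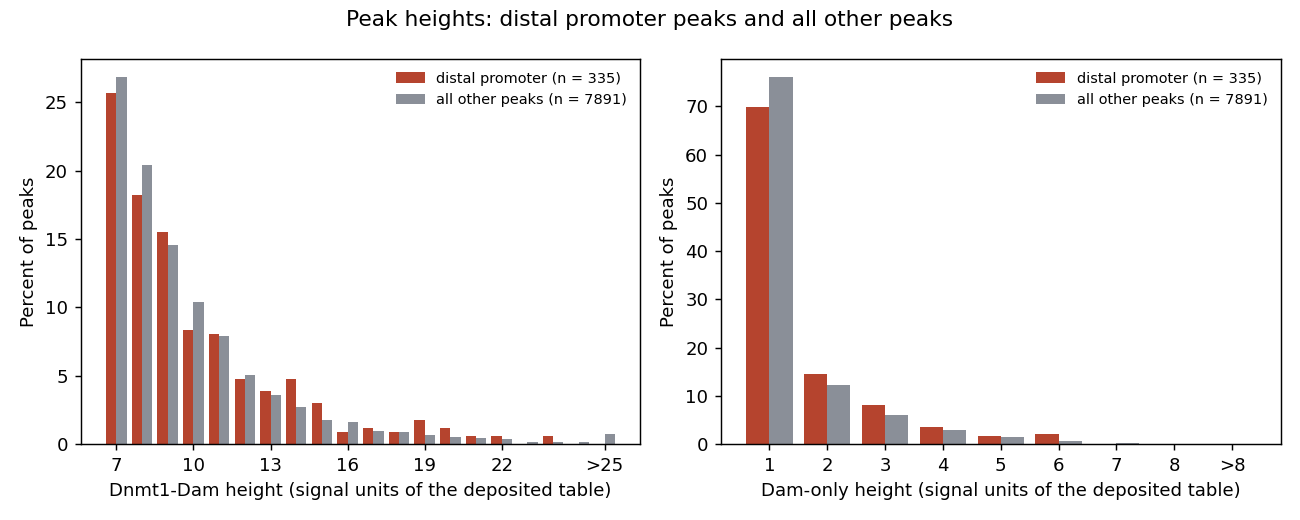
Percent of distal promoter peaks (335) and of all other peaks (7891) at each Dnmt1-Dam height (left) and each Dam-only height (right), in the signal units of the deposited table. Both sets pile up at the lowest heights, and a Dam-only height of 1 takes 69.9% of distal promoter peaks against 76.1% of the others.

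The 10 highest peaks had heights between 20 and 24 in Dnmt1-Dam and between 1 and 4 in Dam-only. The peak of Cmas, which encodes the enzyme that activates sialic acid, had a height of 24 in Dnmt1-Dam and 1 in Dam-only, on chromosome 6 at 142701291. It lay at -4.002 kb (negative distances are upstream) with no repeat named. The peak of Sult1c1, a cytosolic sulfotransferase gene, also reached 24, against 3 in Dam-only, on chromosome 17 at 54138351 and at -8.40 kb. Both are at the upper end of the class, and the Sult1c1 peak has the higher background of the pair.

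Next came the peak of Tha1, the threonine aldolase gene, with 22 in Dnmt1-Dam and 1 in Dam-only, in a SINE at -3.93 kb (chromosome 11, 117738771). The peak of Glra3, a glycine receptor subunit gene, had 22 and 1, in a LINE at -8.66 kb (chromosome 8, 58410961). At Lrrc15, which encodes a leucine-rich repeat membrane protein, the heights were 21 and 1 at -7.43 kb (chromosome 16, 30290741). These peaks stood on the lowest background that the list holds.

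Xpnpep2, a membrane-bound aminopeptidase gene of the X chromosome, had a peak of 21 in Dnmt1-Dam and 4 in Dam-only, in a SINE at -7.61 kb (45454291). Eif3d, a subunit of translation initiation factor 3, had 20 and 1 in a SINE at -4.14 kb (chromosome 15, 77805391). Casr, the calcium-sensing receptor gene, had 20 and 1 in LTR sequence at -6.32 kb (chromosome 16, 36568541). The last of the 10 were A530064D06Rik, with 20 and 2 at -3.78 kb (chromosome 17, 48307991), and the chemokine receptor-like gene Ccr1l1, with 20 and 3 in a LINE at -5.28 kb (chromosome 9, 123898521). Retroelement sequence was named at 6 of these 10 peaks, and none had an island context.

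Outside that rule, and chosen after its value was seen, is the peak of Eif3a, named Eif3s10 in the file and encoding another subunit of the same initiation factor. It reached 19 in Dnmt1-Dam and 2 in Dam-only, in the shore of a CpG island at -8.95 kb. Also chosen after its value was seen is Khdc3, which encodes a maternal protein of the egg and early embryo, with 19 and 1 at -4.17 kb and no repeat. In height these peaks follow directly on the 10 above.

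The highest background among distal promoter peaks was a Dam-only height of 6, at 7 peaks. Gltp, a glycolipid transfer protein gene, had 18 in Dnmt1-Dam and 6 in Dam-only, in a SINE. Olfr270, an odorant receptor gene, had 15 and 6. Sdr39u1 (2310014G06Rik in the file), Ahdc1 and the cytochrome b5 reductase gene Cyb5r2 had 14 and 6 each. Krtap5-2, a keratin-associated protein gene, had 13 and 6, and the kinase gene Nlk had 12 and 6, which is the smallest ratio that the list allows. A SINE was named at 3 of these 7 peaks and a LINE at 2.

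**Figure D2:**
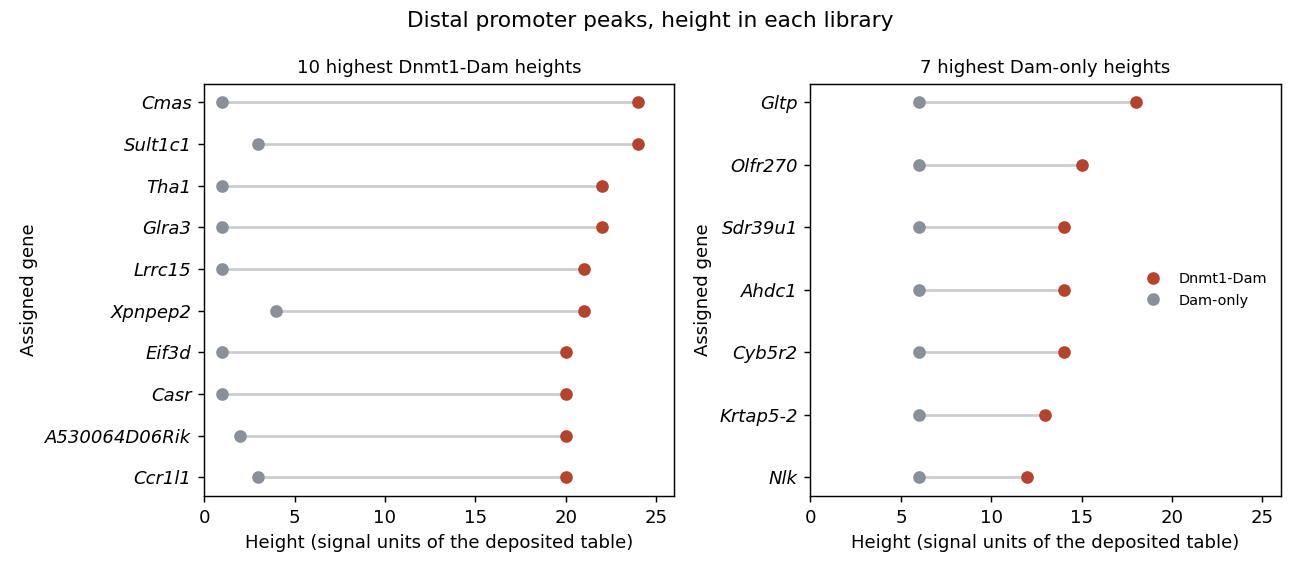
Height of single distal promoter peaks in Dnmt1-Dam and Dam-only, in the signal units of the deposited table, labelled by assigned gene: the 10 highest by Dnmt1-Dam (left, 20 to 24) and the 7 with the highest Dam-only height (right, 12 to 18 against 6). Of the 10 highest, 6 have a Dam-only height of 1.

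Retroelements are named in the title of the series, and SINEs were the class most often named at distal promoter peaks. A SINE was named at 90 of 335 (26.9%, 22.2 to 32.0), LTR sequence at 38 (11.3%, 8.15 to 15.2) and a LINE at 24 (7.16%, 4.64 to 10.5). At least 1 of the 3 was named at 146 (43.6%, 38.2 to 49.1), against 34.6% of all other peaks (33.6 to 35.7). SINEs are short elements that depend on the LINE machinery to move, LTR elements are endogenous retroviruses and their relatives, and LINEs are autonomous elements. Simple repeats were named at 10 peaks and DNA transposons at 7, and no repeat was named at 171 (51.0%, 45.6 to 56.5), against 60.9% of all other peaks (59.8 to 62.0).

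The SINE share lay above that of the rest of the list (16.7%, 15.8 to 17.5) with intervals apart, and it was the higher of the shares on 16 of 19 autosomes. On chromosomes 3, 7 and 13 it was lower, with 2 of 19, 3 of 24 and 0 of 8 distal promoter peaks. The gap was present in peaks of height 9 or more (26.1% against 17.6%), in those at a Dam-only height of 1 (25.2% against 16.3%) and with 1 peak per run of peaks within 1 kb (27.6% against 16.8%), with intervals apart each time. At height 15 or more, where 36 distal promoter peaks remain, the shares were 33.3% (18.6 to 51.0) and 19.8% (16.9 to 23.0), and the intervals overlapped. For LTR sequence the interval overlapped that of the rest of the list (10.8%, 10.1 to 11.5). By location class the SINE share was 26.9% in distal promoter peaks, 19.6% (14.6 to 25.5) in proximal promoter, 18.38% (17.1 to 19.7) in gene body and 15.05% (13.98 to 16.2) in intergenic peaks. The distal promoter interval overlapped the proximal one and lay above the other pair.

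**Figure D3:**
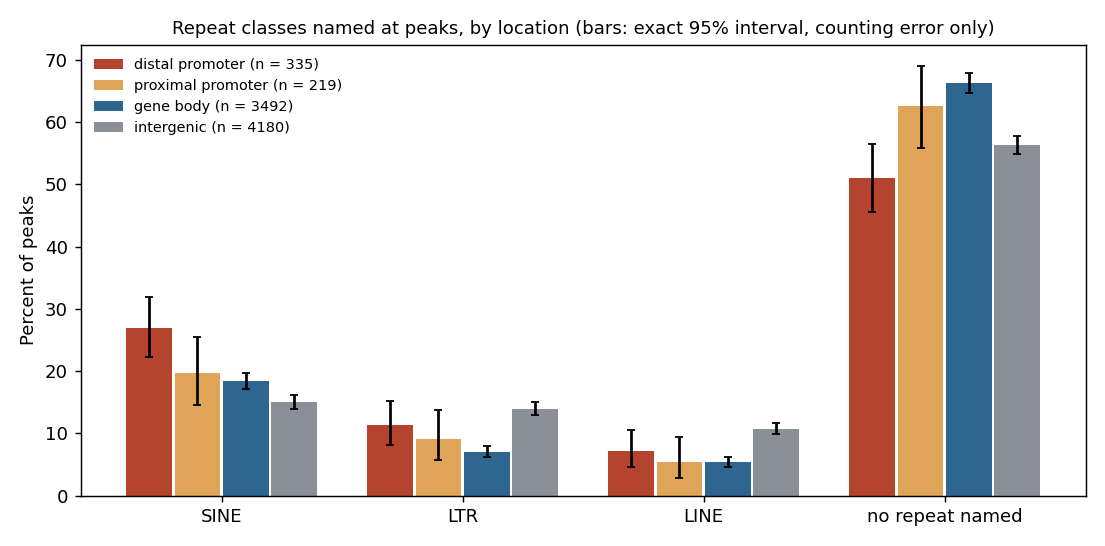
Percent of peaks at which each repeat class is named, for distal promoter, proximal promoter, gene body and intergenic peaks, with exact 95% intervals for counting error. Distal promoter peaks have a SINE share of 26.9% and, among these location classes, the lowest share without a repeat, 51.0%.

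Set against bands of distance, the SINE share was not particular to the distal promoter. It was 24.7% (18.5 to 31.8) from 0 to 3 kb upstream, 26.9% in the distal promoter, 24.3% (19.9 to 29.1) from 10 to 20 kb, 19% (15.7 to 22.6) from 20 to 50 kb, 16.5% (13.1 to 20.4) from 50 to 100 kb and 12% (10.2 to 14) beyond 100 kb. The distal promoter interval overlapped those of the bands up to 50 kb and lay above those farther out. On the other side of the start site, from 3 to 10 kb downstream, SINEs were named at 24.2% (20.6 to 28.1), which also overlaps. The shares with any of the SINE, LTR and LINE classes and with no repeat were not particular to the distal promoter either. From 10 to 20 kb upstream they were 44.6% (39.4 to 50.0) and 51.1% (45.8 to 56.45), and from 0 to 3 kb upstream 41.4% (34.0 to 49.1) and 54.6% (46.9 to 62.1). From 3 to 10 kb downstream they were 34.2% (30.1 to 38.4) and 61.8% (57.5 to 66.0). These bands were chosen after the data had been seen. The genomic coverage of each class at these distances was not analysed here, so the shares are not enrichments.

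LTR sequence was named at 11.3% of distal promoter peaks (8.15 to 15.2), against 5.76% of the peaks 3 to 10 kb downstream (3.92 to 8.12), and the intervals lay apart by the narrowest of margins. Of the 521 downstream peaks 460 lay inside the gene, where the LTR share was 5.43% (3.55 to 7.92). Over the whole list it was 7.02% in gene body and 13.97% in intergenic peaks, so side and location class cannot be told apart here. Counting the first repeat named, the distal promoter share was 10.4% (7.39 to 14.2), and with 1 peak per run 10.97% (7.76 to 14.9). Both of these intervals overlap the downstream interval of 3.92 to 8.12. The downstream share under the same rules is not given here. For LINEs the distal promoter and downstream shares were 7.16% (4.64 to 10.5) and 5.37% (3.60 to 7.67), with overlap. Upstream of the distal promoter, LTR sequence was named at 15.0% of peaks from 10 to 20 kb (11.4 to 19.12), which overlaps the distal promoter interval. Within the distal promoter, the LTR share was 8.33% (4.63 to 13.6) at 3 to 6.5 kb and 14.4% (9.43 to 20.6) at 6.5 to 10 kb, and these overlapped as well.

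**Figure D4:**
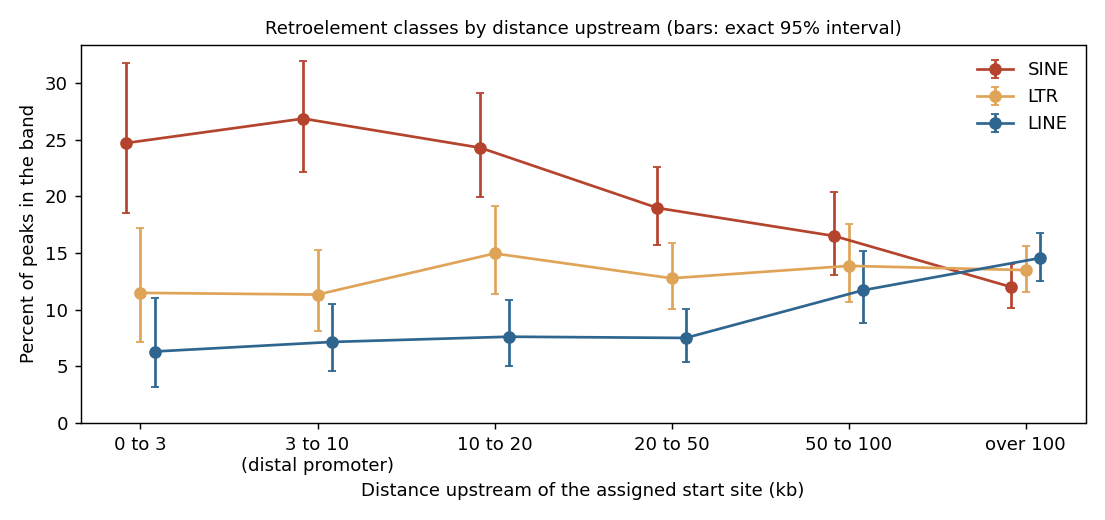
Percent of peaks with a SINE, LTR or LINE entry by distance upstream of the assigned start site, with exact 95% intervals; lines join the bands of each class. SINE is named at 26.9% of distal promoter peaks and 12% of those beyond 100 kb, and LINE at 7.16% and 14.6% in those bands.

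Median heights differed little between repeat classes. Among distal promoter peaks the median height was 9 in SINEs (interquartile range 7 to 12), 8 in LTR sequence (7.25 to 11), 10 in LINEs (8 to 11.5) and 9 without a repeat (8 to 11). Of the SINE peaks 65.6% had a Dam-only height of 1 (54.8 to 75.3), against 71.3% of those without a repeat (63.9 to 78.0), with overlap. Several repeat entries of 1 class at the same peak occurred with SINEs (12 peaks with 2 entries and 1 with 3), with LTR sequence (6 peaks) and with LINEs (1 peak). SINE and LTR entries stood together at 6 peaks. The file names classes only, so B1, B2 or IAP elements were not separated.

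A CpG island context was given for 31 distal promoter peaks (9.25%, 6.37 to 12.9), against 6.5% of all other peaks (5.97 to 7.07), with overlapping intervals. CpG islands are CpG-dense stretches that are mostly unmethylated at promoters, and shores and shelves are the zones around them. The context was an island at 4 peaks (1.19%, 0.326 to 3.03), a shore at 14 and a shelf at 13. The peaks in islands were those of Mrvi1, an inositol trisphosphate receptor-associated gene, with 12 in Dnmt1-Dam and 1 in Dam-only at -3.79 kb, Ero1b, an oxidase gene of the endoplasmic reticulum, with 9 and 2 at -7.91 kb, Fsd1, with 8 and 2 at -5.29 kb, and the lipid-transporting ATPase gene Atp9a, with 7 and 1 at -3.57 kb. All 4 were below the height of 15, and only the Atp9a peak had a repeat, a simple repeat. Figla, a transcription factor gene of the oocyte, had 13 and 1 in a shore at -3.40 kb, and is named after its value was seen.

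The island context was found at 20 of 168 peaks at 3 to 6.5 kb (11.9%, 7.43 to 17.8) and 11 of 167 at 6.5 to 10 kb (6.59%, 3.33 to 11.5), with overlapping intervals. In the wider surroundings it was 10.9% from 0 to 3 kb upstream (6.70 to 16.5), 9.60% from 10 to 20 kb (6.74 to 13.2) and 2.29% beyond 100 kb (1.5 to 3.34). The distal promoter interval lay above the last of these. From 3 to 10 kb downstream it was 12.7% (9.93 to 15.8).

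The peaks were spread over the window with no pile-up at either end. Between 39 and 55 lay in each of its 7 bins of 1 kb, and the stretch from 3 to 6.5 kb held 168 (50.1%, 44.7 to 55.6). The mean was 47.9 peaks per kb, against 58.0 per kb from 0 to 3 kb upstream, 35.4 per kb from 10 to 20 kb upstream and 74.4 per kb from 3 to 10 kb downstream. The number of genes whose surroundings reach that far differs between bands and was not corrected for, since the files list only genes with a peak. The peaks just inside the near edge were those of Keap1, the sensor of oxidative stress (9 in Dnmt1-Dam and 2 in Dam-only at -3.005 kb), and Chmp2b (9 and 1 at -3.01 kb), and just outside lay those of Stt3b (9 and 3 at -2.98 kb) and Lrrc8b (7 and 1 at -2.97 kb). At the far edge, Rwdd3 (9 and 2) and the aromatase gene Cyp19a1 (9 and 1 at -9.93 kb) were inside, while Prxl2a (9 and 1) and Nup107 (8 and 1) lay just beyond at -10.02 and -10.05 kb. Heights on both sides of the edges were of the same size.

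**Figure D5:**
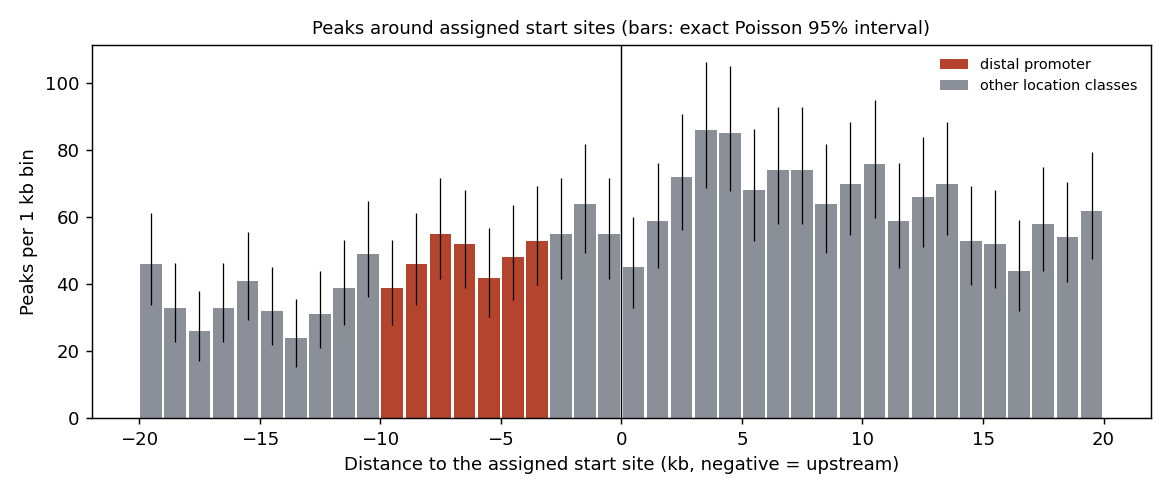
Number of listed peaks per 1 kb bin of distance to the assigned start site, from 20 kb upstream to 20 kb downstream, with exact Poisson 95% intervals. The 7 bins of the distal promoter hold between 39 and 55 peaks each, and the 10 bins farther upstream between 24 and 49.

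Distal promoter peaks were 4.06% of autosomal peaks (326 of 8028, 3.64 to 4.52) and 4.57% of those on the X chromosome (9 of 197, 2.11 to 8.5). By autosome the share ran between 2.04% on chromosome 13 and 5.61% on chromosome 19. After Xpnpep2, the highest X-linked peaks were those of the mitochondrial dehydrogenase gene Hsd17b10, with 12 in Dnmt1-Dam and 2 in Dam-only, and of the kinase gene Araf, with 9 and 2, both in SINEs. These names were taken after their values were seen. The assigned genes lay on the plus strand at 174 peaks and on the minus strand at 161.

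The 335 peaks were assigned to 314 genes, of which 21 had 2 distal promoter peaks and none had more. No other peak was assigned to 216 genes, while 98 (31.2%) had a peak of another class: 65 in intergenic DNA, 45 in the gene body and 5 in the proximal promoter. The last were Ing3, Havcr2, Mst1r, Rabggtb and Tekt3. The same share for genes with peaks elsewhere is not given here, so the 31.2% is a description only. No distal promoter peak lay inside another gene of the file or nearer to another listed start site, though 4 had a further listed start within 10 kb. These absences may follow from how the authors assigned genes and location classes to peaks, so they are no check of the assignments. Genes without any peak are not in the file, so 4 is a lower bound for peaks with a further start within 10 kb. The 314 genes had a median length of 25.7 kb (interquartile range 10.4 to 58.0). For all genes with a peak and none in the distal promoter it was 43.5 kb (15.2 to 114). Among these, the 307 genes with a peak 10 to 20 kb upstream had 31.7 kb (10.8 to 80.8). The 202 genes with a proximal promoter peak had 16.9 kb (5.46 to 38.9). The 2390 genes with a peak in the body had 80.9 kb (33.6 to 178). Choosing genes by a peak in the body is tied to gene length, so that gap is not a result about distal promoter genes.

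Most of the genes with 2 distal promoter peaks had them close together. Of the 21 pairs, 15 were no more than 200 bp apart and 5 more than 1 kb apart (median 130 bp, 80 to 3480). None of their 42 peaks had an island context, against 9.25% of all distal promoter peaks. Peaks so close together are not independent, so nothing is concluded from this absence. Close neighbors were not particular to the class. Another listed peak lay within 200 bp of 8.96% of distal promoter peaks and of 10.6% of all listed peaks. Lefty1, which encodes an inhibitor of Nodal signaling in left-right patterning, had peaks of 17 in Dnmt1-Dam and 1 in Dam-only at -7.29 kb and of 13 and 1 at -7.39 kb, with no repeat. Pgm1, named Pgm2 in the file and encoding a phosphoglucomutase, had 19 and 1 at -8.99 kb and 11 and 2 at -9.08 kb, both in LTR sequence. Ceacam18, a cell adhesion molecule gene, had 19 and 1, and 10 and 2, 130 bp apart. At Pgm1 and Ceacam18 the higher peak had the lower Dam-only height, while at Lefty1 both peaks had 1.

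Sult1c1 had its other peak 3480 bp from the first, with 9 in Dnmt1-Dam and 1 in Dam-only. The proto-oncogene kinase gene Pim1 had 14 and 4, and 7 and 1, both in SINE sequence and 2130 bp apart. Pigr, the receptor that carries immunoglobulins across epithelia, had 12 and 1, and 7 and 1, without a repeat. The phosphatase gene Dusp2 had 13 and 1, and 11 and 1, in LINE sequence 80 bp apart. Its relative Dusp26 had 12 and 2, and 10 and 1, both in SINE sequence and the higher one also in an LTR entry. Other genes with high summed heights were Selenon (14 and 11 in Dnmt1-Dam), Adgrf2 (14 and 8), Clip1 (12 and 10), Trim13 (12 and 9), the glutamate receptor-like gene Grid1 (12 and 8) and Epn2 (10 and 8). In 11 of the 21 pairs the heights differed by at most 2, and the same was not counted for pairs elsewhere in the list.

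The assigned genes were grouped into 20 lists, most of them by the start of the gene symbol, so that a list neither holds every gene of its kind nor only such genes. Each share of the 314 genes had an interval that overlapped the share among all 4841 genes with a peak. Symbols of the ubiquitin pathway list were the most numerous, with 10 (3.18%, 1.54 to 5.78), against 2.27% of genes with any peak. They included the ligase genes Rnf111 and Rnf139, with 17 in Dnmt1-Dam and 3 in Dam-only each, and Klhl14, with 15 and 5. Symbols of the G protein coupled receptor list numbered 7 (2.23%, against 1.80%), and Casr, a receptor of this kind, is not among them. Besides Ccr1l1, the melanocortin receptor gene Mc3r had 19 and 1 at -3.66 kb, and Gpr12 had 15 and 3 in the shore of a CpG island. Symbols of the protein kinase list numbered 6 (1.91%, against 1.90%), with Camk2g at 12 and 1, Mapkap1 at 11 and 1 and Prkg1 at 10 and 3. Of the 6, Mapkap1 encodes a subunit of an mTOR complex and Tab1 (10 and 1) a partner of a kinase, and neither is a kinase. The kinase genes Pim1, Nlk and Araf are outside the list, so the count is not that of all kinase genes.

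Cytochrome P450 genes and genes of conjugating enzymes, alcohol and aldehyde dehydrogenases numbered 5 (1.59%, 0.519 to 3.68, against 0.620%, 0.418 to 0.883). One of the 5, Aldh18a1 (7 and 1), encodes an enzyme of proline synthesis. The highest after Sult1c1 were the steroid- and drug-metabolizing Cyp2b10, with 10 in Dnmt1-Dam and 1 in Dam-only in LINE sequence, and Cyp19a1. Olfactory and vomeronasal receptors numbered 4 (1.27%, against 0.930%), with Vmn2r56 at 15 and 5 and Vmn1r214 at 13 and 1 after Olfr270. Secreted factor genes by symbol also numbered 4 (against 1.57%). Ifnar2, which is a receptor, had 13 and 3, the interferon beta gene Ifnb1 had 11 and 1 and Wnt11 had 8 and 2. Zinc finger genes numbered 4 (against 1.88%), led by Zfp957 at 9 and 2, with Zfp663 and Zfp689 at 7 and 1 each. Homeobox and related factors numbered 4 (against 1.45%), with Lhx4 at 10 and 3 and Pou2f2 at 8 and 1. Solute carriers numbered 4 (against 2.11%), with the glutamate transporter gene Slc1a2 at 9 and 2, the glycine transporter gene Slc6a9 at 9 and 1 and Slc18a2 at 7 and 1.

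Ion channel genes numbered 3 (0.955%, against 2.27%), namely Glra3, Grid1 and the potassium channel gene Kcnf1, with 12 in Dnmt1-Dam and 1 in Dam-only. Chromatin modifier genes numbered 3 (0.955%, against 1.05%), with the histone deacetylase gene Hdac9 at 9 and 1, the arginine methyltransferase gene Prmt8 at 8 and 1 and the histone acetyltransferase gene Kat6b at 7 and 1. Proteases and serpins also numbered 3 (0.955%, against 1.05%), with Ctsa at 11 and 2 and with Prss22 and Serpina10 at 7 and 1 each. A single gene (0.318%) came from each of 5 further lists. These were Itgb2l of the integrin, cadherin and collagen genes, with 16 and 3 (against 1.36%), Rpl27a of the ribosomal protein genes, with 15 and 1 in LTR sequence (against 0.558%), and Krtap5-2 of the keratin and associated genes (against 0.186%). The others were Ampd3 of the imprinted genes, with 10 and 1 (against 0.331%), and the meiosis gene Meioc of the germline genes, with 8 and 2 in LINE sequence (against 0.207%).

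Of the pluripotency and first lineage genes, 2 had a distal promoter peak (0.637%, against 0.413%). These were Lefty1 and Tfap2c, a transcription factor gene of trophectoderm and germ cells, named Tcfap2c in the file, with 8 in Dnmt1-Dam and 2 in Dam-only in a SINE and island shelf at -6.89 kb. None of the 6 genes of the 2-cell list with a listed peak had one in the distal promoter. The share was thus 0% of distal promoter genes (0 to 1.17), against 0.124% of genes with any peak, and nothing is concluded from it. MicroRNA and small nucleolar RNA genes, matched by symbol, had no listed peak of any class. Whether the assignment of peaks to genes could name such genes is not known here, so nothing is concluded from their absence. With so few members per list, shares as far apart as those given for ion channels and solute carriers had overlapping intervals.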

How the data were processed

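DamID libraries of 2 groups, Dnmt1-Dam and Dam-only, were sequenced after 15 cycles of PCR and size selection around 300 bp, per the labels' protocols. The submitters' processing notes name CASAVA, BWA and mm9. Depth is unknown, since no source used here gives read totals; nor is a peak caller, its threshold or the handling of duplicates stated. The deposited table holds 8226 positions with 1 signal height per library, used as signal and not as counts. From it the distance to the assigned start, repeat and island shares with exact Clopper-Pearson intervals (95%, scipy 1.17.1), exact Poisson intervals and medians were computed in Python 3.11.15 with pandas 2.3.3. The interval and merging functions were tested on simulated data. A peak with several repeat classes entered the share of each. Genes were matched to RefSeq (GRCm38.p6) by accession, gene ID or symbol, for 313 of 314 transcripts, and lists were matched by symbol; RefSeq's symbol is printed.

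The named items were the 10 highest peaks, the 5 with the highest Dam-only height with ties, island peaks, up to 15 genes with 2 peaks, the edges of the window and up to 3 members per list. The members, lists and rules were chosen with earlier results of these data known. Alternatives were stricter heights, merged runs, a narrower window, a Dam-only height of 1, other repeat, island and pseudocount rules and, added after the data had been seen, the autosomes alone. Some items that these rules select are not reported here.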

Additional observations from a re-analysis of the deposited data

How the results depend on the processing

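Of 83 recalculations of 13 results, 66 stayed within the main interval or spread (for gene counts, within 1.5 times), 16 moved beyond it and 1 turned. For medians the spread is the SD over single peaks, which is a wide limit for a median. No paired analysis was possible because each group is 1 library. At height 15 or more, distal promoter peaks were 5.06% of listed peaks of that height (3.57 to 6.93), an interval that holds the main 4.07%. In that range SINE was named at 33.3% of distal promoter peaks and a Dam-only height of 1 was found at 44.4%. Their median height was 18, the median log2 ratio 2.69 and the genes numbered 36. At 9 or more, 54.3% had a Dam-only height of 1 and 178 genes remained. The median, the ratio and the gene counts follow from selecting by height, and for the other shares the cause was not tested. As said above, low peaks cannot have a high background, so the share at a Dam-only height of 1 is tied to height by the limits of the list. Among all other peaks it was 76.1% at any height, 62.5% at 9 or more and 54.7% at 15 or more. The 8 to 4 kb window held 2.39% of peaks and 187 genes, by its width. At a Dam-only height of 1, 6.84% reached a height of 15, against 6.16% of all other peaks at that Dam-only height, and the cause was not tested. Without shelves the island context was 5.37%. Heights of at least 12 and 20 were reached by 24.2% and 2.99%. The median log2 ratio was 0.71 with a pseudocount of 10, 2.81 with none and -0.76 when scaled to the sums over all peaks, where 0 is the ratio of those sums and not equal signal. With autosomes alone the results other than the X chromosome share, which cannot be computed there, stayed within their interval or spread. Read depth is unknown, so the precision of the heights cannot be given.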
